A study of Mus musculus with 12 samples.

Results

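The 9 transcription factors analysed were the interferon regulatory factors Irf1, Irf5, Irf7, Irf8 and Irf9, the signal transducers Stat2, Stat3 and Stat6, and Spi1, which encodes PU.1. They were chosen with earlier results of these data known. Each was matched by symbol to 1 Ensembl identifier, and all 9 were present among the 35697 genes of the 2018 count table and the 55637 genes of the 2022 table. Brain RNA came from adult male C57BL/6J mice of 20 to 25 g in 4 groups of 3. Controlled cortical impact (CCI), a piston blow to the exposed cortex (3 mm tip, 1.5 m/s, 1.5 mm deep, 100 ms), produced traumatic brain injury (TBI), and sham mice had the surgery with no blow. The first comparison set TBI at 7 days against sham, both sequenced in 2018. The second set TBI mice injected intraperitoneally with zileuton, an inhibitor of the leukotriene-forming enzyme 5-lipoxygenase, in corn oil at 10 mg/kg/day against TBI mice, both sequenced in 2022 and both injured. The labels of the 2022 controls say only TBI and name no vehicle, whereas the study describes this control group as vehicle-treated. Labels of the zileuton mice give 7, 8 and 9 days in the source name but 7 in the library name. The tissue was pericontusional by the study's methods and brain by the labels, and the mice of the 2022 batch are called A, B and C because their columns could not be tied to numbered labels.

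IRFs bind interferon-stimulated response elements (ISRE), and STATs, once phosphorylated by JAK kinases below a cytokine receptor, bind gamma-activated sites (GAS). STAT2 and IRF9 are subunits of the complex ISGF3, which switches on antiviral genes including Irf7, and IRF7 in turn drives further type I interferon. PU.1 is an ETS family factor that myeloid cells, microglia included, need for their identity, and IRF8 often binds DNA beside it; STAT3 serves the IL-6 family and STAT6 serves IL-4 and IL-13.

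Promoter windows are shown because some of these genes carry the letters that the same families bind. RefSeq windows of GRCm38.p6, from 250 bases before to 50 bases after a transcription start, were found for 8 of the 9 genes. Both strands were searched for the ISRE (a pair of GAAA with 2 free bases between), TTCNNNGAA (GAS), the wider spacing preferred by STAT6 (TTC and GAA with 4 free bases between) and GAGGAA (a PU box, bound by PU.1). The PU box is short, and 28.3% of all 32851 windows held it, against 3.44% for the ISRE letters, 8.3% for the GAS letters and 6.95% for the STAT6 spacing. The ISRE letters occurred in Stat2 alone of the 8 genes, the GAS letters in Irf1 and Irf8, the STAT6 spacing in Stat2 and Irf9, and the PU box in Stat6 and Irf9. Irf1, Irf8 and Irf9 had 2 windows each, and the second windows of Irf1 and Irf8 held no match. The shares above are per window, so they are not on the same unit as these genes. The 250 bases before the start are given below for the 4 genes with a match outside the annotated gene, 5′ to 3′ on the gene's strand, with matches in capitals.
Irf1, chr11:53769764-53770013, plus strand: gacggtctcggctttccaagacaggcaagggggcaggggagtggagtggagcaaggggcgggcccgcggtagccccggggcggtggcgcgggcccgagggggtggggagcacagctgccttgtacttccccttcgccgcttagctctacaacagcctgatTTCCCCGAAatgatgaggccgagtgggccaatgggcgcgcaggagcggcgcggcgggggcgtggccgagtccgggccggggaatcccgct
Irf8, chr8:120736108-120736357, plus strand: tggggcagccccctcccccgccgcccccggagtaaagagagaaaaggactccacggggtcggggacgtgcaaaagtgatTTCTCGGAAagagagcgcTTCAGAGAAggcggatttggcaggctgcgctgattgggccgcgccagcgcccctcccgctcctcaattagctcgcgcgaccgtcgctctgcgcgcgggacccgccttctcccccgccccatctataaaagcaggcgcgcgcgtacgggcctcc
Stat2, chr10:128270248-128270497, plus strand: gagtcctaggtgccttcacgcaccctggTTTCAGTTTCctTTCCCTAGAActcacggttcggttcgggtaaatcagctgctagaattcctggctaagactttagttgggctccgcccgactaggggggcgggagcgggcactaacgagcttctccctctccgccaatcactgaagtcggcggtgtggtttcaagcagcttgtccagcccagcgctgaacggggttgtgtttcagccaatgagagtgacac
Stat6, chr10:127642736-127642985, plus strand: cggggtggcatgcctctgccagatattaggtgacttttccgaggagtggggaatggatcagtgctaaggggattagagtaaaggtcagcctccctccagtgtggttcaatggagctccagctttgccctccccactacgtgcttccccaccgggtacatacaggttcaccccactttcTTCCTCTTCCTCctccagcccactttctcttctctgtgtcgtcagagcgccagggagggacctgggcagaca
Irf1 held 1 GAS match (bases -90 to -82, counting the base before the start as -1) and Irf8 held 2 (-171 to -163 and -153 to -145). In Stat2 the ISRE letters lay at -222 to -213 on the opposite strand, followed after 2 bases by the STAT6 spacing, and Stat6 had 2 adjoining PU boxes on the opposite strand (-72 to -67 and -66 to -61). No matches in these windows overlapped. A match describes letters only, and the windows of Irf5, Irf7 and Stat3 held none of the 4 patterns.

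Libraries held 42929862 to 48684674 counts in 2018 and 27845562 to 35453257 in 2022. As a check of the injury label, Gfap, an astrocyte filament gene, was at 188 ± 41.6 CPM (SD, n = 3; CPM is the count scaled to library size) in sham and 2484 ± 211 in TBI. Summed markers of choroid plexus ran from 18.3 to 1069 CPM among sham mice and from 8.85 to 1456 CPM among the 2022 mice. Nothing in the labels says how the mice were spread over cages or days, and the p-values measure the spread between these mice.

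All 9 genes were upregulated after TBI, with no overlap between sham and TBI mice for any of them. Each had an adjusted p-value under 0.05 (edgeR's quasi-likelihood test, Benjamini-Hochberg over 19536 genes), against 28.0% of all genes called in either direction and 16.8% called higher. Because the 9 genes were chosen with earlier results of these data known, these shares describe the list and do not test it. Their median log2 fold change was 2.03, and that of all genes tested was 0.02. At least a 2-fold rise was found in 7 of the 9, a class that held 8.73% of all genes, and at least a 4-fold rise in 5 of the 9, against 3.83% of all genes. The non-overlap itself was seen, in the higher direction, in 24.6% of all genes.

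**Figure D1:**
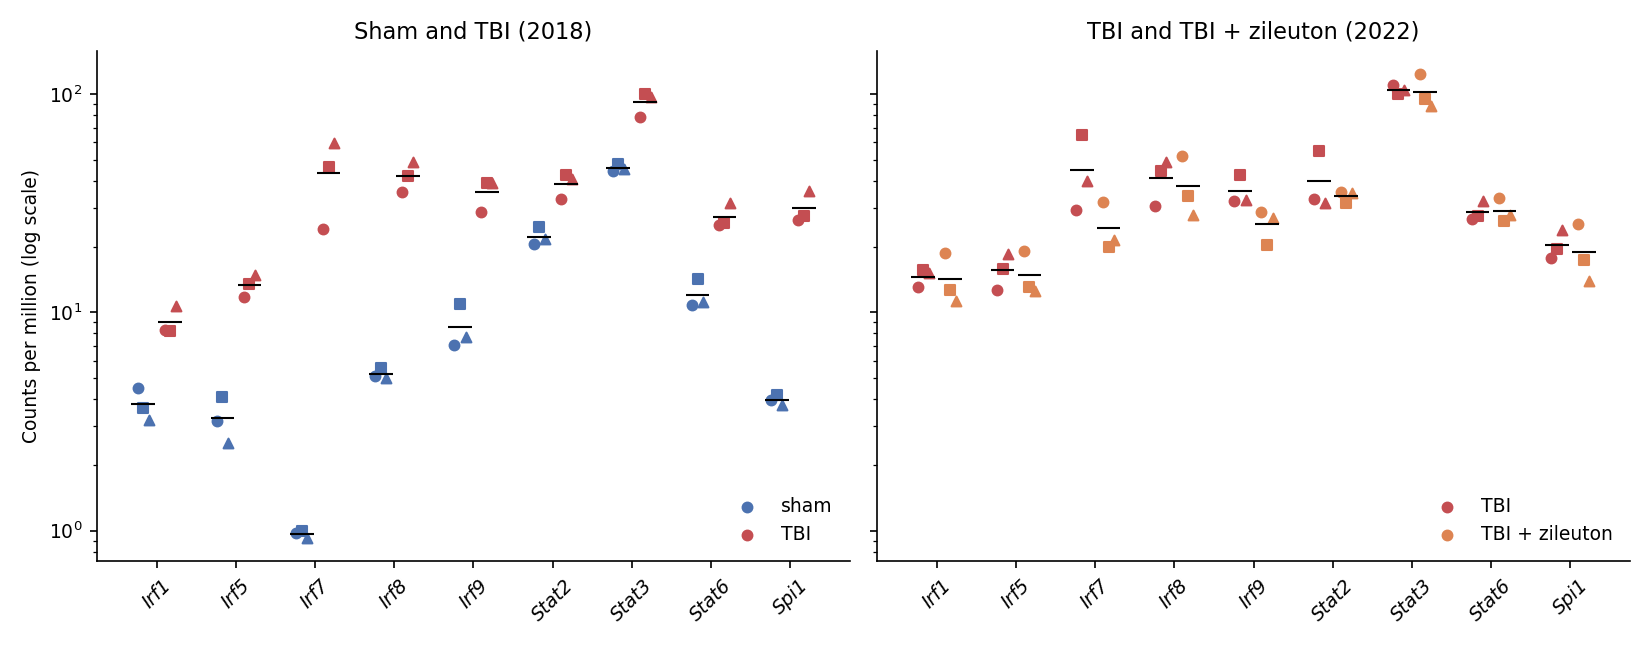
Level in CPM (log axis) of the 9 genes in each library, sham and TBI on the left and TBI with and without zileuton on the right; each symbol is 1 mouse and the bar is the mean of 3. Every TBI mouse of 2018 lies above every sham mouse, most widely for Irf7, whereas in 2022 the groups part only for Irf9.

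Irf7, the amplifier of type I interferon production, changed most. This gene (ENSMUSG00000025498, chr7:141262706-141266481, minus strand, GRCm38) was at 0.977, 0.994 and 0.926 CPM in the 3 sham mice and at 24.2, 46.2 and 59.4 CPM in the 3 TBI mice. Sham mice were nearly identical at 44 to 46 counts each, while the TBI mice spread more than 2-fold among themselves and still stood far above them. The log2 fold change was 5.48 (SE 0.346, adjusted p = 1.75e-05), which is 44.6-fold. Irf7 was the lowest of the 9 in sham tissue, so the gene that started lowest rose furthest.

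The ISGF3 subunits Irf9 and Stat2 rose less. Irf9, the DNA-binding subunit (ENSMUSG00000002325, chr14:55603571-55610030), was at 7.08, 10.9 and 7.70 CPM in sham and 28.7, 39.1 and 39.2 CPM in TBI mice. Sham mouse 2 was the highest of its group and remained well under the lowest TBI mouse. Its log2 fold change was 2.06 (SE 0.188, adjusted p = 9.67e-05). Stat2, the transactivating subunit (ENSMUSG00000040033, chr10:128270559-128292849), was at 20.5, 24.6 and 21.6 CPM in sham and 33.1, 42.5 and 41.0 CPM in TBI mice. The groups were apart, and the log2 fold change of 0.81 (SE 0.119, adjusted p = 0.00137) was the smallest of the 9. Rnf31 shares 123 exon bases with Irf9 on the same strand, and reads there could belong to either gene.

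Irf1, which interferon gamma induces and which carried the GAS letters shown above, rose moderately. The gene (ENSMUSG00000018899, chr11:53770014-53778374) was at 4.51, 3.65 and 3.22 CPM in sham mice and at 8.27, 8.19 and 10.6 CPM in TBI mice. Its log2 fold change was 1.25 (SE 0.187, adjusted p = 0.00149). Irf5, which acts below Toll-like receptors and favours inflammatory cytokine genes (ENSMUSG00000029771, chr6:29526625-29541871), was at 3.17, 4.11 and 2.53 CPM in sham and 11.7, 13.5 and 14.9 CPM in TBI mice. Both groups of Irf5 were tight next to the gap between them, and its log2 fold change was 2.03 (SE 0.199, adjusted p = 0.000143). Tnpo3 on the opposite strand shares 411 exon bases with Irf5 and Gm17334 shares 135 with Irf1, as do Phrf1 (45) with Irf7 and Nab2 (40) with Stat6; whether counting used the strand is not given in the sources used here.

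The myeloid pair Spi1 and Irf8 rose nearly in parallel. Spi1 (ENSMUSG00000002111, chr2:91082390-91115756) was at 3.97, 4.17 and 3.77 CPM in sham and at 26.4, 27.5 and 36.1 CPM in TBI mice. Irf8 (ENSMUSG00000041515, chr8:120736358-120756694) was at 5.13, 5.58 and 4.99 CPM in sham and at 35.4, 41.9 and 48.9 CPM in TBI mice. Within each group the spread was small beside the rise, and in both genes TBI mouse 1 was the lowest injured mouse and TBI mouse 3 the highest. The log2 fold change was 2.92 for Spi1 (SE 0.147, adjusted p = 7.52e-06) and 3.01 for Irf8 (SE 0.136, adjusted p = 5.39e-06). In bulk tissue, more cells of a type and more RNA per cell cannot be told apart.

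Stat3 and Stat6 rose by smaller factors. Stat3, the factor of the IL-6 family that reactive astrocytes use (ENSMUSG00000004040, chr11:100885098-100939540, minus strand), was at 44.5, 47.9 and 45.2 CPM in sham and 78.1, 99.7 and 97.0 CPM in TBI mice. The log2 fold change of Stat3 was 1.00 (SE 0.101, adjusted p = 0.000166). Stat6, the factor of IL-4 and IL-13 (ENSMUSG00000002147, chr10:127642986-127660957), was at 10.8, 14.1 and 11.2 CPM in sham and 25.0, 25.6 and 31.7 CPM in TBI mice. Its log2 fold change was 1.19 (SE 0.142, adjusted p = 0.000435). In both genes the highest sham mouse was below the lowest TBI mouse.

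Injury also reordered the 9 genes. FPKM, the authors' count scaled to gene length and library total, allows levels to be set side by side. In sham tissue Stat3 led at 4.73 ± 0.199 FPKM (SD, n = 3), then Stat2 at 3.68 ± 0.366 and Stat6 at 2.68 ± 0.417, and none of these ranges touched its neighbour. Irf9 (1.56 FPKM), Spi1 (1.45 FPKM), Irf5 (1.10 FPKM) and Irf1 (0.936 FPKM) followed, each overlapping the next, with Irf8 at 0.728 ± 0.0439 and Irf7 at 0.251 ± 0.00889 FPKM below. In TBI tissue Irf7 (11.7 ± 4.74 FPKM), Spi1 (11.3 ± 1.87 FPKM) and Stat3 (9.79 ± 1.34 FPKM) had overlapping ranges at the top. Irf9, Stat2, Stat6, Irf8 and Irf5 followed between 6.74 and 4.67 FPKM with each overlapping its neighbour, and Irf1 came last at 2.31 ± 0.325 FPKM. The FPKM of Irf7 rest on a length of 3776 bases that spans the whole gene, introns included. In the 2022 TBI mice, in TPM, Irf7 (45.1 ± 17.8), Stat3 (43.3 ± 3.49) and Spi1 (41.6 ± 3.41) again headed the order with overlapping ranges.

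Expressing each gene relative to Spi1 in the same library separates genes that kept pace with PU.1 from genes that did not. The log2 ratio of Irf8 to Spi1 counts was 0.37 to 0.42 in sham and 0.42 to 0.61 in TBI mice, a difference of 0.09. That of Irf7 went from between -2.06 and -2.01 to between -0.13 and 0.75, a gain of 2.47. The other 6 genes all lost ground to Spi1, by differences of -0.83 for Irf9, -0.85 for Irf5, -1.65 for Irf1, -1.71 for Stat6, -1.91 for Stat3 and -2.10 for Stat2. Spi1 itself rose by 2.92 on the log2 scale against a median of 0.02 for all genes, so most genes fell relative to it. Each of the 8 ratios had sham and TBI mice apart. The share of all genes apart in such a ratio was not computed in either batch. All 8 gave an exact two-sided permutation p of 0.1 (0.1 adjusted over the 8). That is the smallest that 3 mice against 3 allow, so none could pass 0.05.

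**Figure D2:**
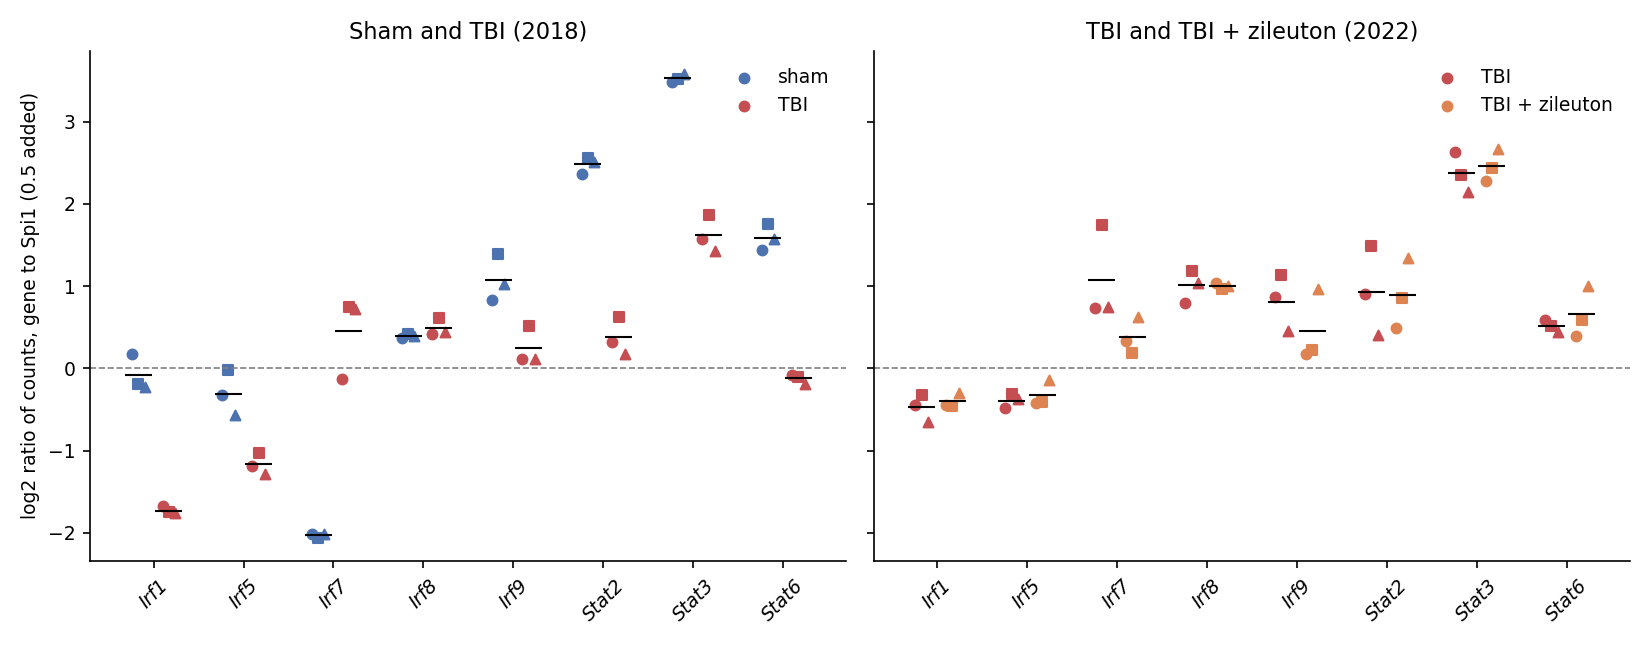
Log2 ratio of each gene's count to that of Spi1 in the same library (0.5 added to each), for sham and TBI on the left and TBI with and without zileuton on the right; symbols are mice and bars are means of 3. After TBI, Irf7 gained 2.47 on Spi1, Irf8 moved by 0.09 and the other 6 genes fell relative to it.

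Other members of both families were measured in the same fit. Stat5a (log2 fold change 1.65, adjusted p = 0.00269) and Irf3, which like IRF7 is activated below nucleic acid sensors (0.57, adjusted p = 0.00177), were called higher. Not called were Stat5b (0.20, 95% interval -0.06 to 0.46), Stat4 (0.66, -0.61 to 1.94), Irf2 (0.08, -0.16 to 0.32) and Irf4 (-0.46, -1.63 to 0.72), all with edgeR adjusted p-values of 0.232 or more. The PU.1 relative Spib was called higher on few counts, 0 to 4 in sham and 15 to 32 in TBI mice (adjusted p = 0.0139), and Spic, at 0 to 4 and 2 to 12 counts, was too low to test. Stat5a shares 72 exon bases with Stat3 on the opposite strand.

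Upstream of these factors, most sensor and receptor genes and 2 of 4 kinase genes were called higher. Of all genes tested, 16.8% were called higher and 11.2% lower. Of 26 tested nucleic acid and Toll-like sensing genes, 21 were called higher and 1 lower, with a median log2 fold change of 1.80. Unc93b1, which carries endosomal Toll-like receptors, rose by 2.94 on the log2 scale (adjusted p = 2.86e-06) and Tlr2 by 4.26 (adjusted p = 7.17e-06), whereas the kinase gene Tbk1 was lower (-0.31, adjusted p = 0.0135). Of 18 receptor chains 12 were called higher and none lower, among them Csf3r (3.17) and Il10ra (2.12), while Cntfr, the most abundant, was at 0.02 (adjusted p = 0.899). Among the 4 JAK kinases Jak3 (1.32, adjusted p = 7.02e-05) and Tyk2 (0.56, adjusted p = 0.011) were called higher, and Jak1 (-0.05) and Jak2 (0.04) were not. Of 17 negative regulators 4 were called higher and 2 lower, close to the shares of all genes, and their median log2 fold change was 0.11. Usp18 (4.55) and the phosphatase gene Ptpn6 (3.01) were higher, and Socs5 (-0.40) and Socs7 (-0.28) lower. The ligands were mostly too low to test, as 12 of 18 interferon and cytokine genes were not tested. Counts of Ifnb1, Ifnk, Ifng and Il10 were 0 throughout the sham group. Those of Ifng and Il13 were 0 throughout the TBI group of 2018, so Ifng was undetected in both groups of 2018. In each 2022 group, both injured, Ifng had a value above 0 in at least 1 mouse. The IL-6 family ligand Osm (3.55, adjusted p = 0.0122) was called higher. Il4 was called lower (-0.59, adjusted p = 0.0146), from 9.17 ± 0.625 CPM in sham to 6.10 ± 0.584 CPM in TBI mice (SD, n = 3), but it was listed at 0 in all 6 mice of 2022, and whether the 2018 values measure Il4 was not tested.

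Known targets of these factors were mostly called higher, except those of STAT6. Over all genes the shares were 16.8% higher and 11.2% lower. The target and upstream lists were chosen with earlier results of these data known, so the counts describe the lists and do not test them. All 25 of the targets of ISGF3 and IRF7 were called higher, with a median log2 fold change of 4.13, for example Oasl2 (5.17), Ifi27l2a (5.59), Bst2 (4.60), Trim30a (4.16) and Ifit3 (3.18). Of 33 PU.1 and IRF8 targets 32 were called higher (median 2.95), including Cybb (5.16), the oxidase subunit gene of phagocytes, and C1qa (3.25). Of 18 STAT3 targets 16 were called higher and 1 lower (median log2 fold change 2.63), and those with the smallest adjusted p were Serpina3n (4.41) and Gfap (3.72). Of 12 tested STAT6 targets 5 were called higher (median 1.16), Arg1 (7.01) and Il4ra (2.47) among them, and 7 were not called, Ccl17 at -0.09 (adjusted p = 0.852) among these. Among 24 tested ETS and myeloid partners, 20 were called higher, Cebpa (1.98) and Cebpd (2.42) with them, and 2 were lower, Mef2c (-0.67) and Ets2 (-0.42), both abundant in sham brain. Of the PU.1 and IRF8 targets 7 of 33 were also on the microglia and macrophage marker list, Gfap was on the astrocyte list and Arg1 and Chil3 of the STAT6 targets on the monocyte list. None of the 25 ISGF3 and IRF7 targets were on any marker list. Csf3r, Osmr, Il4ra, Socs3, Cish, Usp18 and Dhx58 each stood on an upstream list and on a target list, so those counts share genes.

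**Figure D3:**
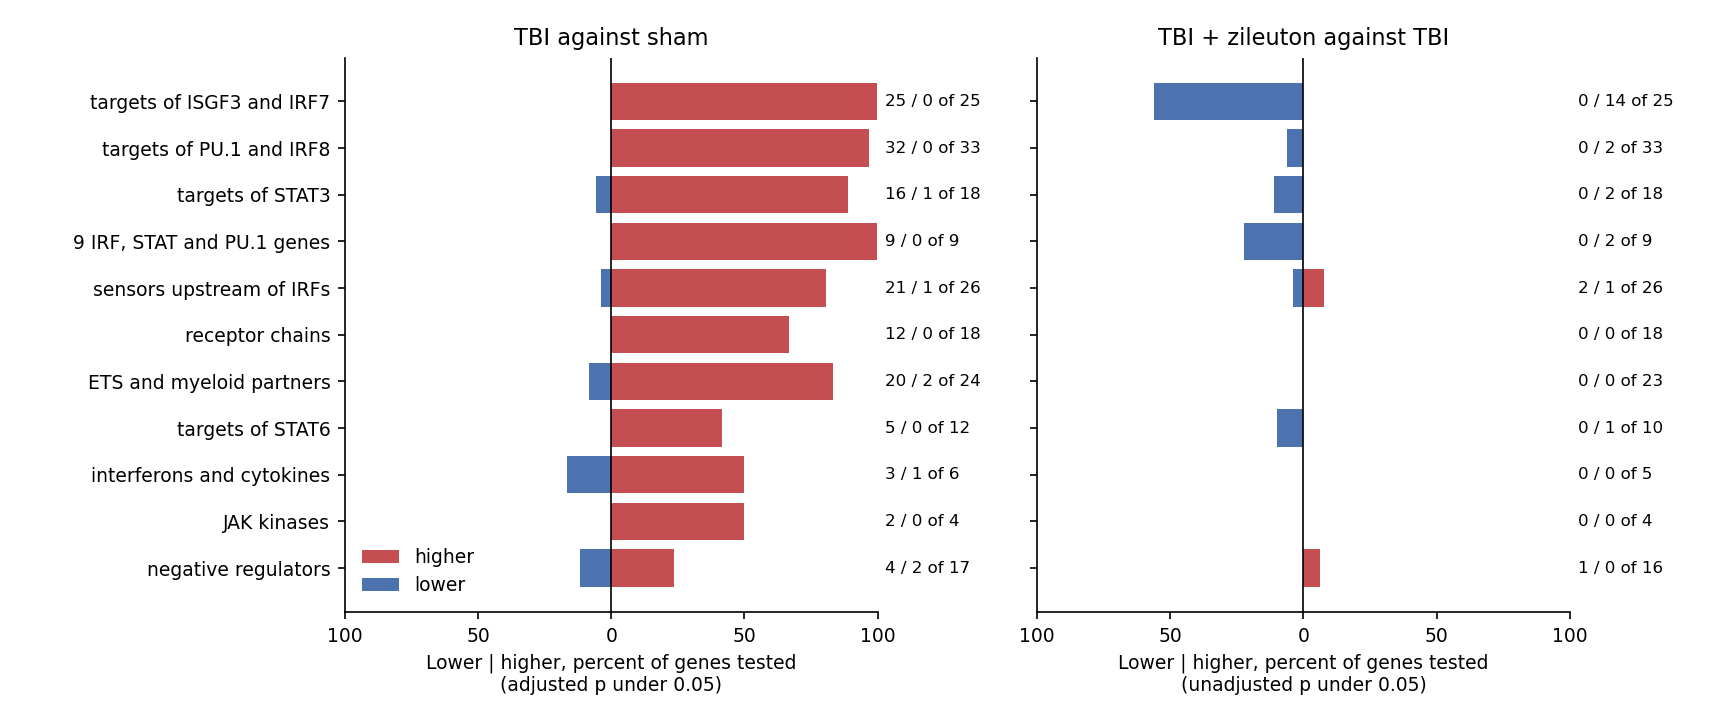
Share of the tested genes of each list that were higher (right) or lower (left), at an adjusted p under 0.05 for TBI against sham and at an unadjusted p under 0.05 for zileuton, with the counts higher and lower of those tested printed beside each bar. All 25 targets of ISGF3 and IRF7 were higher after TBI, and 14 of the 25 were lower with zileuton.

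Markers of several cell types moved with the 9 genes. For comparison, 16.8% of all genes were called higher and 11.2% lower. The summed level of 8 microglia and macrophage markers was 187 to 228 CPM in sham and 1123 to 1758 CPM in TBI mice, and all 8 were called higher. The 9 homeostatic microglia markers went from 217 to 255 CPM up to 595 to 924 CPM, a median log2 fold change of 1.10, and the 8 monocyte markers from 0.346 to 0.843 CPM up to 52.1 to 153 CPM, with Ms4a4c at 0 in all sham mice. Neutrophil markers went from 0.649 to 1.41 CPM up to 17.4 to 66.7 CPM, with all 6 that could be tested called higher and Ly6g, Camp and Cxcr2 at 0 in all sham mice. Astrocyte markers, at 3701 to 4139 CPM in sham and 7217 to 7556 CPM in TBI mice, had 5 of 6 called higher. Oligodendrocyte markers (4428 to 5002 CPM, then 5282 to 9594 CPM) and fibroblast and meningeal markers (136 to 145 CPM, then 188 to 575 CPM) each had 4 of 5 called higher. Summed neuron markers ran from 6640 to 7265 CPM in sham and from 4151 to 5272 CPM in TBI mice, with 3 of 6 called lower. Their part in the rise of the 9 genes was not tested.

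With zileuton, none of the 9 genes passed the adjusted threshold. No gene of 17363 tested had an adjusted p-value under 0.05 in edgeR, 1186 (6.83%) had an unadjusted p under 0.05, and 3.9% were lower at that threshold. These were 509 higher and 677 lower genes, a balance that turned to 729 higher and 410 lower with limma on log2(TPM + 1). DESeq2 called 26 genes at the adjusted threshold and limma 4, none of them among the 9. The fitted change was negative for 8 of the 9, with a median log2 fold change of -0.10 against 0.0025 for all genes. An unadjusted p under 0.05 was found in 2 of the 9, Irf9 and Irf7.

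**Figure D4:**
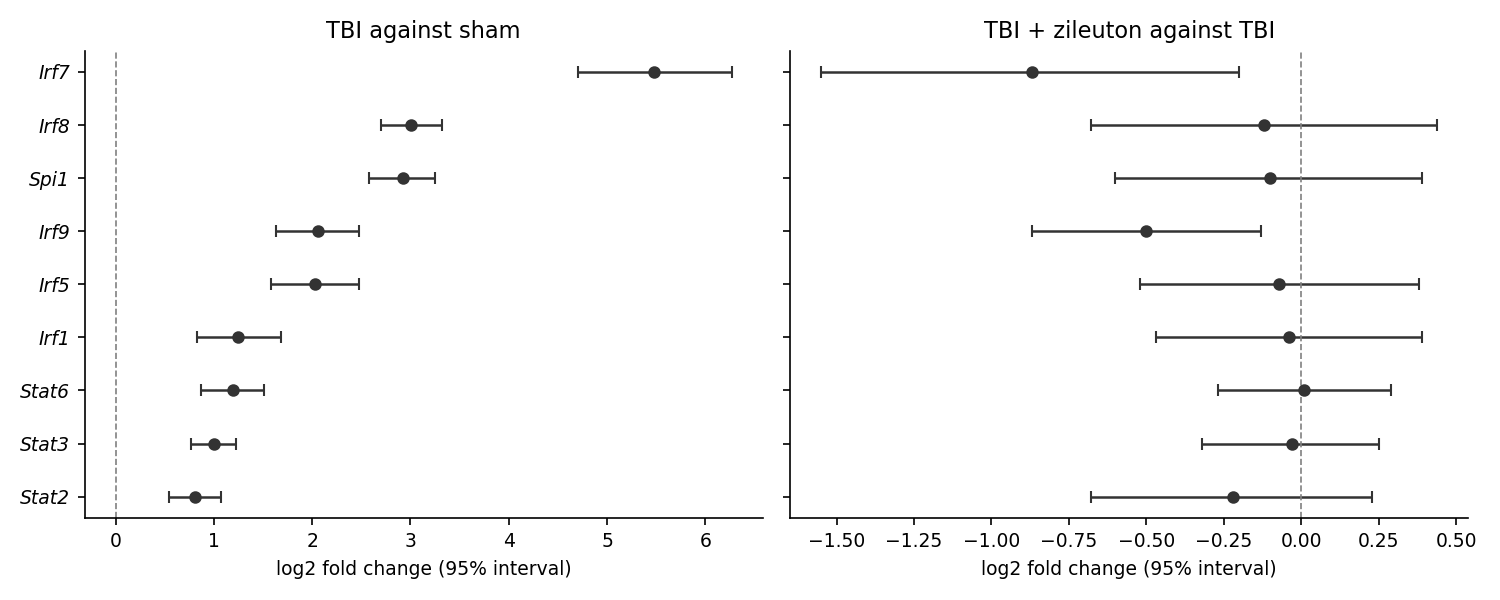
Log2 fold change of the 9 genes (point) with its 95% interval (bar) for TBI against sham, left, and zileuton against TBI, right. On the left every interval lies above 0; on the right only those of Irf7 and Irf9 lie below 0, and neither passes the adjusted threshold.

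Irf9 was at 32.3, 42.5 and 32.5 CPM in TBI mice A, B and C and at 28.7, 20.2 and 27.0 CPM in zileuton mice A, B and C. The zileuton mice were all below the TBI mice, as for 7.04% of all genes, and the log2 fold change was -0.50 (SE 0.160, edgeR adjusted p = 0.713). Irf7 was at 29.4, 65.0 and 39.9 CPM in TBI and at 32.1, 19.9 and 21.4 CPM in zileuton mice. Zileuton mouse A exceeded TBI mouse A, so the groups overlapped, and the log2 fold change was -0.87 (SE 0.293, edgeR adjusted p = 0.713). TBI mouse B was the highest in both genes. Without it Irf9 was at -0.36 and Irf7 at -0.50, and neither passed even the unadjusted threshold. Of 17610 genes tested in that setting, 1433 passed it.

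For the other 7 genes the data set bounds and gave no call. The log2 fold change was -0.22 for Stat2 (95% interval -0.68 to 0.23), -0.12 for Irf8 (-0.68 to 0.44), -0.10 for Spi1 (-0.60 to 0.39), -0.07 for Irf5 (-0.52 to 0.38) and -0.04 for Irf1 (-0.47 to 0.39). Stat3 (-0.03, -0.32 to 0.25) and Stat6 (0.01, -0.27 to 0.29) had the narrowest intervals. Spi1 was at 17.7, 19.5 and 23.8 CPM in TBI and 25.4, 17.4 and 13.9 CPM in zileuton mice, and Irf8 at 30.7, 44.3 and 49.0 CPM and 52.2, 34.0 and 27.8 CPM. In both genes zileuton mouse A was the highest of all 6 and zileuton mouse C the lowest. Without zileuton mouse A, Spi1 at -0.38 and Stat3 at -0.19 also had an unadjusted p under 0.05, which made 4 of the 9. In that setting 1909 of 17632 genes had such a p, against 1186 of 17363 with all mice. Without zileuton mouse B or C only Irf9 of the 9 passed this threshold, as did 689 of 17662 and 777 of 17708 genes. Mouse A also had the highest summed microglia and macrophage markers of the zileuton mice, at 1524 CPM against 1126 and 980 CPM, and the highest monocyte markers, at 95.3 CPM against 41.8 and 40.3 CPM.

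Relative to Spi1, Irf7 was the single gene of the 8 with the 2022 groups apart. Its log2 ratio was 0.73, 1.74 and 0.75 in TBI and 0.33, 0.19 and 0.62 in zileuton mice, a difference of -0.69 (exact permutation p = 0.1, 0.8 adjusted over the 8). Without TBI mouse B the difference was -0.35. The ratio of Irf8 to Spi1 was 0.79 to 1.18 and 0.97 to 1.04, with a difference of -0.003, and the ratio of Irf9 overlapped between the groups (-0.36, exact permutation p = 0.3).

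Known targets of Irf7 and Irf9 had the same mice at their extremes. The fitted change with zileuton was negative for all 25 targets of ISGF3 and IRF7, 14 had an unadjusted p under 0.05 in edgeR, and the median log2 fold change was -0.74. Of all 17363 genes, 8564 had a negative change, 3.9% were lower at that threshold and 7.04% had the groups apart and lower. Ifi27l2a was at -1.13, Ifit3 at -0.94 and Oasl2 at -0.95 (edgeR adjusted p = 0.713 for all 3), each with the groups apart. The lists of PU.1 and IRF8 targets (2 of 33, median -0.21) and of STAT3 targets (2 of 18, median -0.20) had fewer genes with such a p, nearer the 3.9% of all genes. Without TBI mouse B, 20 of the 25 ISGF3 and IRF7 targets were negative, 9 had an unadjusted p under 0.05 and the median was -0.38; without zileuton mouse B those with such a p were 8 of 25. The monocyte markers moved the same way: all 8 were negative, with a median of -0.87, and 2 had an unadjusted p under 0.05 and the groups apart. Their summed level overlapped between the groups, at 48.9, 67.3 and 97.3 CPM in TBI and 95.3, 41.8 and 40.3 CPM in zileuton mice. The median was -0.26 for the 8 microglia and macrophage markers, of which 6 were negative. All 5 red blood cell markers were negative as well (median -0.52), 4 with an unadjusted p under 0.05 in edgeR and 4 with the groups apart. So were all 4 tested neutrophil markers (median -0.46). All 5 oligodendrocyte markers (median 0.32) and all 4 choroid plexus markers (median 0.82) were positive. The part of these cells in the lower Irf7 and target values was not tested.

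The summed level of the 25 targets was 404, 629 and 762 CPM in the 3 TBI mice of 2018, in the order of their Irf7. In 2022 it was 432, 813 and 515 CPM in TBI mice A, B and C and 429, 299 and 335 CPM in zileuton mice A, B and C. Mouse B led the TBI group in both, and zileuton mouse A, highest of its group, stood level with TBI mouse A.

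**Figure D5:**
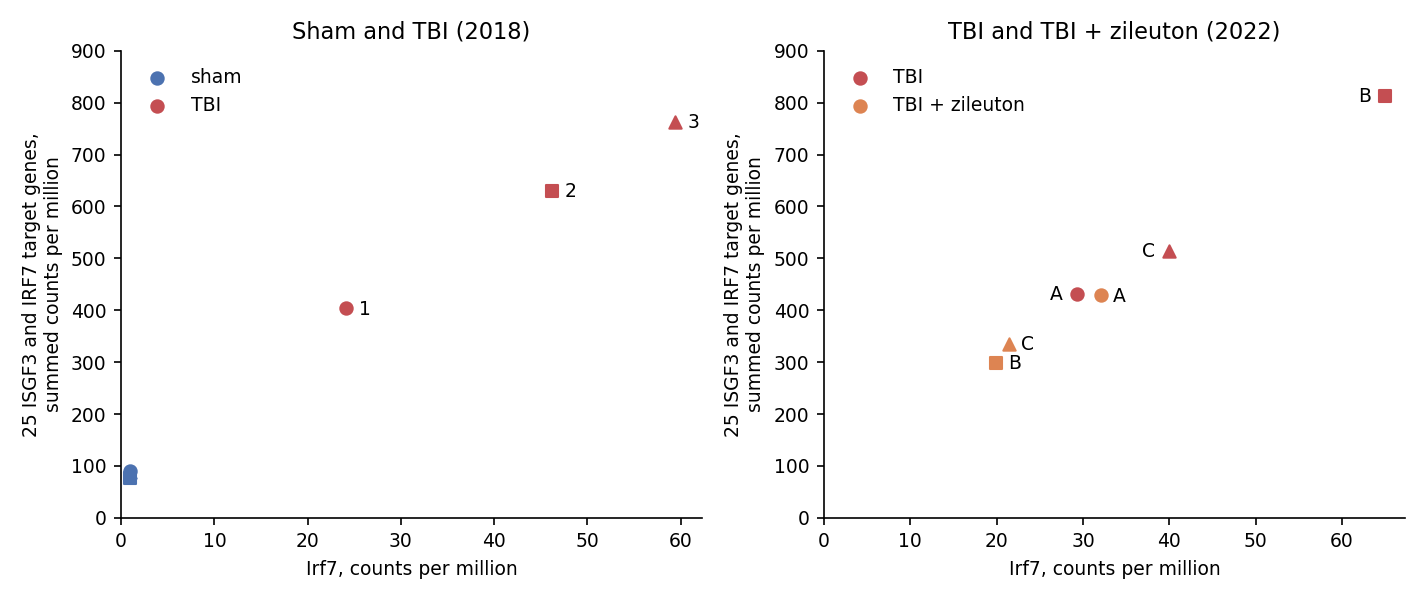
Irf7 (horizontal) against the summed level of 25 known targets of ISGF3 and IRF7 (vertical), both in CPM, with 1 symbol per mouse, numbered or lettered. TBI mouse B stands apart at 65.0 and 813 CPM, and zileuton mouse A lies beside TBI mouse A; points of 1 panel share a batch and Irf7 is not among the 25.

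The genes closest to each of the 9 were those with the smallest root mean square difference in log2 CPM, centred within each batch, over the 12 libraries and 16516 genes. The nearest to Spi1 was Lcp1, an actin-bundling gene of leukocytes (difference 0.064), and Irf8 had Spi1 itself as nearest (0.098). Oasl2 was nearest to Irf7 (0.176), and Trim21 and Parp12 to Irf9 (0.178 each). Stat3 was nearest to Cyp4f14 (0.065) and Add3 (0.080), Stat6 to Fcgrt (0.079) and Scamp2 (0.085), Irf5 to Fgd2 (0.109) and Tgfb1 (0.113), Irf1 to Adcy7 (0.098) and Creb3l1 (0.107), and Stat2 to Aard (0.15) and H2-T24 (0.154). Among the 9, Irf7 was the most distant from the rest, at 0.903 from Irf8 and 1.64 from Stat2. The measure weighs the size of the change after TBI, which 6 of the 12 libraries carry.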

How the data were processed

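RNA of 12 brain libraries, 4 groups of 3 mice, was sequenced as read pairs. The deposited values of 2018 are raw counts and FPKM, and each FPKM was a count over its library total and 1 gene length. The deposited values of 2022 are estimated counts (13.7% not whole) and TPM. The submitters' processing notes name HISAT2, featureCounts, Subread, DESeq2 and GRCm39, with no role or version. The FPKM lengths were within 1 base of GENCODE M21 (GRCm38) exon lengths for 97.8% of 21336 genes, so positions are given on GRCm38. No column of another sample was used.

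Estimated counts were rounded. Counts were tested in R 4.3.3 with edgeR 4.0.16 (TMM, filterByExpr, quasi-likelihood), within each batch, with Benjamini-Hochberg adjustment over all genes at 0.05; CPM use TMM-scaled totals. For zileuton an unadjusted threshold of 0.05 is also given, as in the study's methods. Standard errors are the log2 fold change over the square root of F. Ratios to Spi1 (0.5 added to each count) were compared by an exact two-sided permutation test. In 2018, 62.3% to 64.4% of counts from 1 to 20 were even, so 1 fragment may be counted as 2, and dividing by 2 was an alternative. Other alternatives were DESeq2 1.42.0 and its size factors, library totals, other count filters, a robust fit, limma 3.58.1 on log2 FPKM or TPM, a replicate block and leaving out each mouse. The edgeR step was tested on simulated counts.

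The 9 genes and the gene lists were chosen with earlier results of these data known. Named genes were the 9, other members of both families, and in each list the 3 with the highest mean FPKM and the 2 with the smallest adjusted p, of which some are given here; some items of these lists are not reported here. Of the listed symbols, Rigi and Tasl were not matched. Where the design assumed raw counts for 2022, the rounded estimates took their place.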

Additional observations from a re-analysis of the deposited data

How the results depend on the processing

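For TBI against sham, all 9 genes stayed higher with an adjusted p under 0.05 under every alternative run, including leaving out each mouse (162 of 162 results over the 9 genes). Limma on log2(FPKM + 1) gave a log2 fold change of 3.26 for Irf7 and 0.77 for Irf1, since the added 1 shrinks low values. Genes called higher and lower numbered 3286 and 2193 in edgeR, 3680 and 1715 with library totals, 3036 and 1566 with limma on log2(FPKM + 1), and 2482 and 4962 with a gene length trend removed, an alternative added after the data were seen that moved the median of all genes to -0.17.

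For zileuton, none of the 9 genes passed the adjusted threshold in any alternative run. With an unadjusted p under 0.05 were 0 to 4 of the 9 and 689 to 1909 genes when 1 mouse was left out, and 1 of the 9 with limma on log2(TPM + 1) without filter (Irf9, with Irf7 at -0.74). The numbers did not pair the mice (correlations of same-numbered mice -0.0944 to -0.0228 in 2018 and -0.282 to 0.0628 in 2022). The replicate block left 1 of the 9 and 729 genes for zileuton (Irf9 kept, Irf7 lost at -0.83), and 4337 adjusted calls for TBI. With the length trend removed 847 genes and 2 of the 9 passed. Before removal, the zileuton log2 fold change had a rank correlation of 0.305 with gene length over 17166 genes. For TBI against sham it was -0.117 over 19479 genes. The cause of these correlations was not tested.

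Fitted zileuton changes near 0 changed sign: Stat6 with library totals (-0.00087), Irf5 (0.01) and Stat3 (0.05) in limma, and the ratio of Irf8 with microglia and macrophage markers in place of Spi1 (0.01). Leaving out 1 mouse gave -0.29 to 0.11 for Irf1, -0.28 to 0.06 for Irf5, -1.12 to -0.50 for Irf7, -0.42 to 0.07 for Irf8, -0.60 to -0.36 for Irf9, -0.38 to 0.08 for Spi1, -0.37 to 0.07 for Stat2, -0.19 to 0.06 for Stat3 and -0.10 to 0.10 for Stat6. The ratios to Spi1 then ran from -0.02 to 0.14 for Irf1, -0.03 to 0.11 for Irf5, -0.11 to 0.09 for Irf8, -0.30 to 0.24 for Stat2, -0.03 to 0.22 for Stat3 and -0.03 to 0.28 for Stat6, while those of Irf7 (-0.86 to -0.35) and Irf9 (-0.62 to -0.21) stayed negative. The cause of these changes was not tested. With 3 mice a group, the 95% intervals of the 7 genes without a call reach as far as -0.68 and 0.44 on the log2 scale.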
